A study of Mus musculus with 8 samples.

Results

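The genes described here are 10 transcription regulators of brown fat: Prdm16, Ebf2, Zic1, Ppargc1a, Ppargc1b, Esrra, Esrrb, Esrrg, Ppara and Irf4. They were chosen by name for their known roles in brown fat identity and heat production, with earlier results of these data known. All 10 were found once each among the 54385 gene identifiers of the deposited count table. RNA with a poly(A) tail was sequenced from brown adipose tissue of C57BL/6N mice aged 20 weeks and fed chow, in 4 libraries titled WT and 4 titled cKO. Both groups carry 2 floxed alleles of Adcy3 (FL/FL), the gene of an adenylyl cyclase that makes cyclic AMP. The cKO mice also carry Adipoq-Cre, in which the adiponectin promoter limits the recombinase, and so the loss of Adcy3, to adipocytes. Other cells of the tissue keep the gene, and the WT mice are floxed animals without Cre rather than unmodified mice. The genotype entry of WT replicate 4 is an exception, since it lists the Cre allele although the title says WT. The labels number the libraries but leave unsaid whether each is a separate animal, and the p-values here stand for the spread among libraries, which may be technical.

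Brown adipocytes burn fuel to make heat when adrenergic signals raise cyclic AMP. Prdm16, Ebf2 and Zic1 are tied to the identity of the cell: Prdm16 is a zinc finger cofactor that holds cells in the brown lineage, Ebf2 is an early B cell factor that marks committed brown precursors and opens brown fat enhancers, and Zic1 is a zinc finger factor used as a positional marker of classical brown fat. Ppargc1a and Ppargc1b are coactivators with no DNA binding of their own, and they drive mitochondrial genes through partners that include the estrogen-related receptors encoded by Esrra, Esrrb and Esrrg. Ppara is a fatty acid-sensing nuclear receptor of fat oxidation genes, and Irf4 is a factor that cyclic AMP and fasting induce in fat and that works with Ppargc1a on thermogenic genes.

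The upstream sequences of 3 regulators are shown. They belong to the 2 regulators whose groups did not overlap, Prdm16 and Esrrb, and to Ppargc1a, the regulator best known as a cyclic AMP target. The sequences come from the RefSeq promoter table for GRCm38.p6, and are written 5′ to 3′ on the strand of the gene. They end at the base before the start of the gene's GENCODE exons, which for Ppargc1a leaves off the 1 base next to the RefSeq start. Capitals mark TGACG, the half-site of the cyclic AMP response element, or its reverse complement CGTCA. The Esrrb sequence lies at chr12:86360867-86361116 on the plus strand, the Ppargc1a sequence at chr5:51567727-51567975 on the minus strand, and the Prdm16 sequence at chr4:154636874-154637123 on the minus strand.
Prdm16: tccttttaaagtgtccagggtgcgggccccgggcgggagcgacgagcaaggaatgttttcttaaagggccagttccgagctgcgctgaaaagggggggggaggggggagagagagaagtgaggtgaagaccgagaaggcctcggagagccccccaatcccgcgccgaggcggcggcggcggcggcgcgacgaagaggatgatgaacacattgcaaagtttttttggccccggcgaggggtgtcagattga
Esrrb: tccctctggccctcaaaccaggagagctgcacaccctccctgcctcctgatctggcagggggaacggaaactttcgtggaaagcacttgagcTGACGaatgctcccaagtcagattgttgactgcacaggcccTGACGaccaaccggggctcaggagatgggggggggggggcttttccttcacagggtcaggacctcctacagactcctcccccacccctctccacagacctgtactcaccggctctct
Ppargc1a: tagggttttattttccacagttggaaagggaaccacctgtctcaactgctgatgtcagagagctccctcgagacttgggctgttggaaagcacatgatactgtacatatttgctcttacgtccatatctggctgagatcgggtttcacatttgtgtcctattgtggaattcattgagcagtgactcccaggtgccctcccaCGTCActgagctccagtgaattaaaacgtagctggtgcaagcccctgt

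The Esrrb sequence shown holds TGACG at 158 to 154 and at 117 to 113 bases before the start. The Ppargc1a sequence holds CGTCA at 49 to 45 bases before the start, counted from the RefSeq start. The Prdm16 sequence holds neither TGACG nor CGTCA. A further Esrrb stretch, at chr12:86421394-86421643 on the plus strand, also holds neither and is not shown. The table had windows for 8 of the 10 regulators, 12 windows in all, each reaching from 250 bases before a start to 50 bases after it. Only the 250 bases before the start were searched, in these windows and in those of all genes. On either strand, TGACG was in 3 of these 12 windows (of Esrrb, Ppara and Ppargc1a), against 17.8% of 32851 windows of all genes. The full cyclic AMP response element TGACGTCA was in 0 of the 12, against 1.55% of all windows, and any window with it also holds TGACG. The estrogen-related receptor half-site AAGGTCA was in 0 of the 12, against 4.08%. The NRF1 core GCATGCGC was in 2 (of Esrra and Ppara), against 2.26%, and the EBF palindrome CCCNNGGG in 1 (of Ppara), against 11.8%. These are matches of letters in short windows.

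Libraries held 10713043 (cKO replicate 2) to 32437214 (WT replicate 1) estimated counts. Adcy3, the targeted gene, was at 112, 118, 61.7 and 118 CPM (estimated counts scaled to the size of the library) in WT replicates 1 to 4 and at 17.95, 20.9, 25.3 and 21.5 CPM in cKO replicates 1 to 4, and it passed edgeR's test (log2 fold change -2.26, adjusted p = 0.000925). WT replicate 4 therefore held as much Adcy3 as the other controls, whatever its genotype entry says. The label names the tissue interscapular and the design text inguinal. Of 5 markers of the interscapular site, Meox2 ran from 9.19 to 14.9 CPM, Zic1 from 6.19 to 14.7, Tbx15 from 2.74 to 19.9, Lhx8 from 1.96 to 4.59 and Epsti1 from 0.297 to 2.11 CPM. Of 13 markers of inguinal or white fat, 7 passed the count filter: Lep (30.1 to 111 CPM), Retn (33.5 to 61.6), Nnat (10.4 to 55.8), Hoxc6 (7.34 to 14.5), Hoxc8 (3.05 to 10.2), Agt (2.40 to 6.22) and Hoxa9 (0.339 to 1.80 CPM). The other 6 were lower, with Hoxc9 and Hoxc10 below 1 CPM in every library and Tcf21 at 0 in 7 of 8. The summed level was 26.5 to 44.1 CPM for the 5 interscapular markers and 96.4 to 241 CPM for the 13 others, among which Lep, Retn and Nnat were highest. Sums over lists of different genes and length cannot be compared, so they do not tell the site. The site was not tested further. Ucp1, the uncoupling protein that defines the brown adipocyte, stood between 2233 and 4545 CPM. Transcripts of skeletal muscle varied widely from library to library within both groups and are set beside the regulators below. The share of counts from mitochondrially encoded genes was 24.7% to 27.8% in WT and 26.8% to 31.7% in cKO.

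All 10 regulators passed the filter on low counts, and none was called different between cKO and WT by edgeR's quasi-likelihood test at a Benjamini-Hochberg adjusted p of 0.05 over the 14553 genes tested. The background was low as well, since 10 genes (0.0687%) were called in all. At an unadjusted edgeR p under 0.05 there were 3 of the 10, Prdm16, Zic1 and Esrrb, all higher in cKO, against 5.6% of all genes in either direction and 2.15% in that direction. Every cKO library lay above every WT library for 2 of the 10, Prdm16 and Esrrb, against 1.23% of all genes (3.5% in either direction). Because the list was chosen with earlier results of these data known, these shares describe the regulators and do not test them as a set. The log2 fold change was above 0 for 6 regulators and below 0 for 4, with a median of 0.18, beside a median of 0.01 over all genes tested. DESeq2 called Prdm16 and Esrrb (0.316% of all genes called), edgeR without a filter on low counts called the same pair by name (0.262% of all genes), and limma-voom called 0 of the 10 (0.0687%). These are bulk libraries, in which a change in the number of cells of a type and a change in RNA per cell cannot be told apart.

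**Figure D1:**
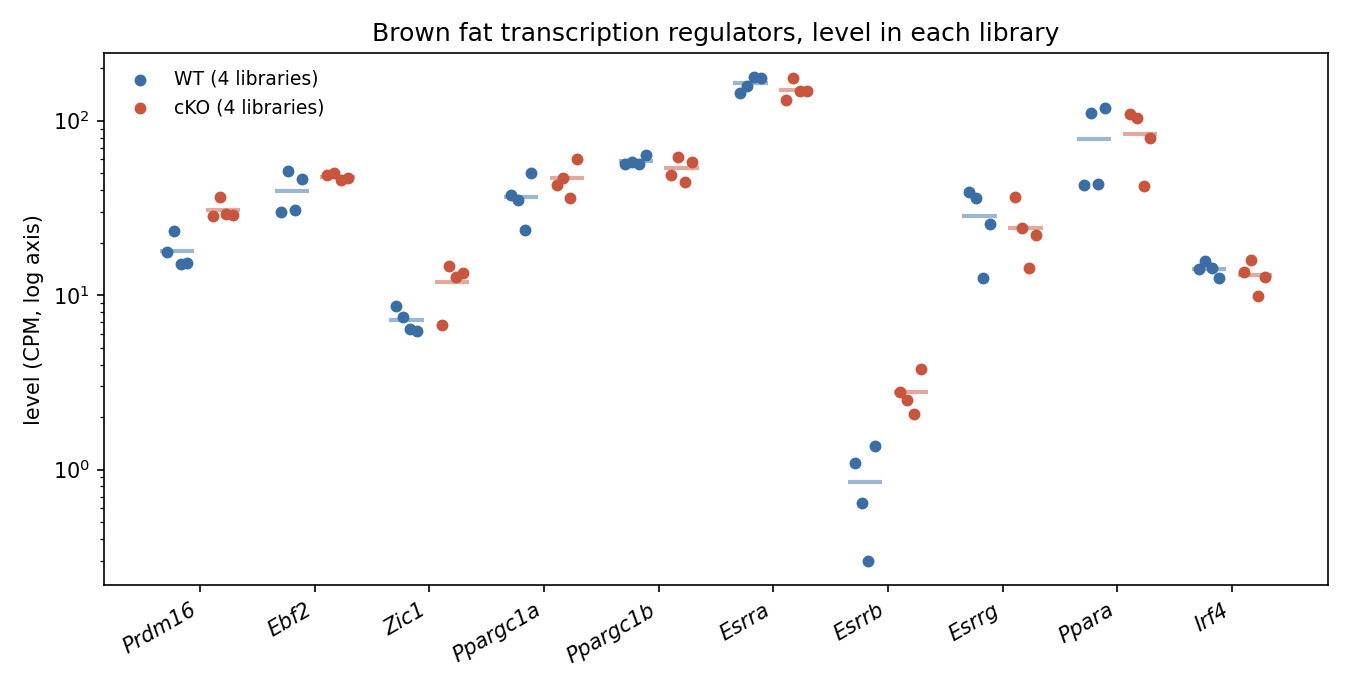
Level of each regulator in each library, in CPM on a log axis, with 4 WT libraries (blue) and 4 cKO libraries (red). Bars mark group means. Prdm16 and Esrrb are the regulators whose 4 cKO points all lie above their 4 WT points, and Zic1 shows 3 cKO points above all WT points and 1 among them.

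Prdm16 (ENSMUSG00000039410, chr4:154316125-154636873, minus strand, GRCm38) was higher in the cKO libraries. It was at 17.6, 23.2, 15.1 and 15.3 CPM in WT replicates 1 to 4 and at 28.4, 36.7, 29.0 and 28.7 CPM in cKO replicates 1 to 4. The lowest cKO library was above the highest WT library, WT replicate 2, and cKO replicate 2 stood apart at the top. The means were 17.8 ± 3.78 and 30.7 ± 4.03 CPM (SD, n = 4 each), a 1.72-fold difference with a 95% interval of 1.37 to 2.17. In log2 terms edgeR fitted 0.79 ± 0.15 (SE), with an unadjusted p of 0.000233, which ranked 14 among 14553 genes, and an adjusted p of 0.242. The adjusted p was 0.00396 with DESeq2 and 0.000158 with edgeR without the count filter, so whether Prdm16 was called depended on the tool and on the filter. Its size hardly moved (log2 fold change 0.79 and 0.77). Without the filter edgeR's SE was again 0.15, but the unadjusted p was 1.29e-07. For Adcy3 edgeR's unadjusted p was 9.63e-61 without the filter and 3.81e-07 with it. Adjusted p-values of the unfiltered fit, for any gene named here, are therefore not on a par with those of the filtered fit. With each library left out in turn, edgeR's log2 fold change of Prdm16 ran from 0.69 to 0.95 and its unadjusted p from 3.73e-05 to 0.00105. With WT replicate 4 counted as cKO, following its genotype entry, it fell to 0.58 (edgeR unadjusted p = 0.047, adjusted p = 0.704). The only gene with exons over those of Prdm16, B230104I21Rik on the other strand, was at 0 CPM in every WT library and at most 0.127 CPM in a cKO library.

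Ebf2 (ENSMUSG00000022053, chr14:67233292-67430918, plus strand) overlapped between groups. It was at 29.8, 51.4, 30.7 and 46.6 CPM in WT replicates 1 to 4 and at 48.8, 50.1, 45.6 and 46.7 CPM in cKO replicates 1 to 4. WT replicates 1 and 3 were low, WT replicates 2 and 4 were as high as the cKO libraries, and the cKO libraries were close together. The means were 39.6 ± 10.97 and 47.8 ± 2.06 CPM (SD, n = 4 each), with a log2 fold change of 0.27 (95% interval -0.09 to 0.64, edgeR adjusted p = 0.894). Ebf2 shared 5.43% of its 31-base sequences with other genes, and the one sharing most was the antisense gene Gm10860, which was at most 0.373 CPM in any library.

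Zic1 (ENSMUSG00000032368, chr9:91358058-91365810, minus strand) was at 8.71, 7.502, 6.36 and 6.19 CPM in WT replicates 1 to 4 and at 6.78, 14.7, 12.8 and 13.4 CPM in cKO replicates 1 to 4. The cKO libraries other than replicate 1 were above every WT library, and cKO replicate 1 lay within the WT range. The means were 7.19 ± 1.17 and 11.9 ± 3.51 CPM (SD, n = 4 each), a 1.64-fold difference with a 95% interval of 1.17 to 2.31 (edgeR log2 fold change 0.72 ± 0.22 SE, unadjusted p = 0.00744, adjusted p = 0.814). With each library left out in turn the log2 fold change ran from 0.60 without cKO replicate 2 (edgeR unadjusted p = 0.0267) to 0.92 without cKO replicate 1 (edgeR unadjusted p = 0.000163, adjusted p = 0.121). It was 0.62 with limma-voom (unadjusted p = 0.0309) and 0.51 with WT replicate 4 counted as cKO (edgeR unadjusted p = 0.110). Zic4, a related gene that overlaps Zic1 head to head on the other strand, had means of 1.68 ± 0.453 (WT) and 1.93 ± 0.351 CPM (cKO; SD, n = 4 each, log2 fold change 0.17, edgeR adjusted p = 0.966). The count table does not say whether strand was used, so reads in the shared stretch could have gone to either gene.

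Both coactivators overlapped between groups. Ppargc1a (ENSMUSG00000029167, chr5:51454250-51567726, minus strand) was at 37.3, 35.3, 23.5 and 49.98 CPM in WT replicates 1 to 4 and at 42.8, 47.1, 36.2 and 60.3 CPM in cKO replicates 1 to 4. The lowest library was WT replicate 3 and the highest cKO replicate 4, and replicate 4 was the highest in both groups. Its log2 fold change was 0.35 (95% interval -0.15 to 0.86, edgeR adjusted p = 0.896). Ppargc1b (ENSMUSG00000033871, chr18:61298136-61400431, minus strand) was at 56.8, 57.9, 56.2 and 63.5 CPM in WT replicates 1 to 4 and at 49.0, 61.9, 44.5 and 58.3 CPM in cKO replicates 1 to 4. WT libraries were tightly grouped, and the cKO libraries straddled them, with replicates 1 and 3 lower. Its log2 fold change was -0.13 (95% interval -0.39 to 0.12, edgeR adjusted p = 0.917).

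Among the estrogen-related receptors, Esrrb was the one whose groups did not overlap, at a very low level. Esrrb (ENSMUSG00000021255, chr12:86361117-86521628, plus strand) was at 1.09, 0.643, 0.298 and 1.36 CPM in WT replicates 1 to 4 and at 2.78, 2.50, 2.09 and 3.79 CPM in cKO replicates 1 to 4. Every cKO library was above every WT library, and cKO replicate 4 was 12.7 times WT replicate 3. These values rest on 35, 9, 6 and 18 counts in WT and 41, 25, 33 and 51 counts in cKO, 218 in all. The means were 0.847 ± 0.470 and 2.79 ± 0.721 CPM (SD, n = 4 each), a 3.29-fold difference with a 95% interval of 1.75 to 6.17 (edgeR log2 fold change 1.72 ± 0.42 SE, unadjusted p = 0.00139, adjusted p = 0.493). DESeq2 gave an adjusted p of 0.0342 and edgeR without the count filter 0.00805, with log2 fold changes of 1.73 and 1.70. Esrrb shared 0.0331% of its 31-base sequences with transcripts of other genes, and no annotated gene overlaps it.

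Esrra, the abundant receptor of the family (ENSMUSG00000024955, chr19:6910977-6921813, minus strand), was at 144, 158, 178 and 176 CPM in WT replicates 1 to 4 and at 131, 177, 147 and 148 CPM in cKO replicates 1 to 4. The groups overlapped, and the log2 fold change was -0.12 (95% interval -0.38 to 0.14, edgeR adjusted p = 0.926). Its exons overlap Trmt112 on the other strand, which averaged 8.996 ± 1.30 CPM (WT) and 9.04 ± 1.78 CPM (cKO; SD, n = 4 each). Esrrg (ENSMUSG00000026610, chr1:187608791-188214885, plus strand), a receptor of highly oxidative tissues, was at 39.1, 36.0, 12.6 and 25.4 CPM in WT and at 36.4, 24.2, 14.3 and 21.97 CPM in cKO. Replicate 1 was the highest and replicate 3 the lowest in both groups, and the log2 fold change of -0.23 had a wide interval (-1.20 to 0.75, edgeR adjusted p = 0.969). Of the summed level of the 3 receptors per kilobase of exon, Esrra made up 88.7% ± 5.10 in WT and 88.6% ± 4.36 in cKO, and Esrrg 10.96% ± 5.01 and 10.2% ± 4.24 (SD, n = 4 each). Esrrb made up 0.333% ± 0.181 in WT and 1.20% ± 0.338 in cKO (SD, n = 4 each) and stayed the smallest part of the family in every library.

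Ppara (ENSMUSG00000022383, chr15:85734983-85802819, plus strand) was at 42.9, 110, 43.3 and 119 CPM in WT replicates 1 to 4 and at 109, 104, 42.3 and 79.6 CPM in cKO replicates 1 to 4. Each group held both low and high libraries: WT replicates 1 and 3 and cKO replicate 3 were close to one another at the bottom. The means were 78.8 ± 41.4 and 83.7 ± 30.4 CPM (SD, n = 4 each), and the log2 fold change was 0.09 with an interval that spans a halving and a doubling (-1.05 to 1.22, edgeR adjusted p = 0.990). Irf4 (ENSMUSG00000021356, chr13:30749226-30766976, plus strand) was at 14.2, 15.7, 14.3 and 12.6 CPM in WT and at 13.5, 15.9, 9.90 and 12.7 CPM in cKO. The groups overlapped, with cKO replicate 3 the lowest, and the log2 fold change was -0.13 (95% interval -0.47 to 0.20, edgeR adjusted p = 0.937).

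Per kilobase of exon, which allows levels of different genes to be compared, Esrra was the most abundant of the regulators at a mean over 8 libraries of 35.9 CPM per kilobase. Ppara followed at 21.2 and Ppargc1b at 14.0 CPM per kilobase. Ebf2 and Ppargc1a were both at 6.31, Esrrg at 4.23, Irf4 at 2.77, Prdm16 at 2.60, Zic1 at 1.68 and Esrrb at 0.301 CPM per kilobase. WT ranges overlapped between these neighbours in the order: Ppara and Ppargc1b, Ebf2 and Ppargc1a, Ppargc1a and Esrrg, and Esrrg and Irf4. The place of Prdm16 next to Irf4 differed by group, since Irf4 was above Prdm16 in 4 of 8 libraries, all of them WT. In WT, Irf4 stood at 2.90 ± 0.259 and Prdm16 at 1.91 ± 0.405 CPM per kilobase, and in cKO Irf4 stood at 2.65 ± 0.503 and Prdm16 at 3.30 ± 0.432 CPM per kilobase (SD, n = 4 each). The order was unchanged with the longest annotated transcript as the length.

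Ratios of 2 transcripts in the same library do not depend on how libraries are scaled. They, and the level of Prdm16 against the mean of 12 adipocyte genes, were compared with an exact two-sided permutation test, adjusted over these 4 ratios. The smallest possible p of this test with 4 against 4 is 0.0286. The log2 ratio of Ppargc1a to Ppargc1b counts was -0.61, -0.71, -1.26 and -0.35 in WT replicates 1 to 4 and -0.19, -0.39, -0.30 and 0.05 in cKO replicates 1 to 4. One WT library, replicate 4, lay above 1 cKO library, replicate 2, and the other libraries were apart. The means were -0.73 ± 0.38 in WT and -0.21 ± 0.19 in cKO (SD, n = 4 each), a difference of 0.52 that did not pass (exact permutation p = 0.0571, adjusted p = 0.0762). The log2 ratio of Prdm16 to Ebf2 was -1.13 ± 0.35 in WT and -0.65 ± 0.14 in cKO (SD, n = 4 each, difference 0.49, exact permutation p = 0.0571, adjusted p = 0.0762). With WT replicate 4 counted as cKO that difference was 0.14 (exact permutation p = 0.679). Set against the mean log2 level of 12 adipocyte genes such as Adipoq, Fabp4 and Plin1, Prdm16 was at -5.66 ± 0.31 in WT and -4.92 ± 0.23 in cKO (SD, n = 4 each, difference 0.74, exact permutation p = 0.0571, adjusted p = 0.0762). The adipocyte genes themselves had log2 fold changes with a median of 0.02, and edgeR called 0 of 12, with 0 at an unadjusted p under 0.05. Esrrg to Esrra differed by -0.05 (exact permutation p = 0.943).

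**Figure D2:**
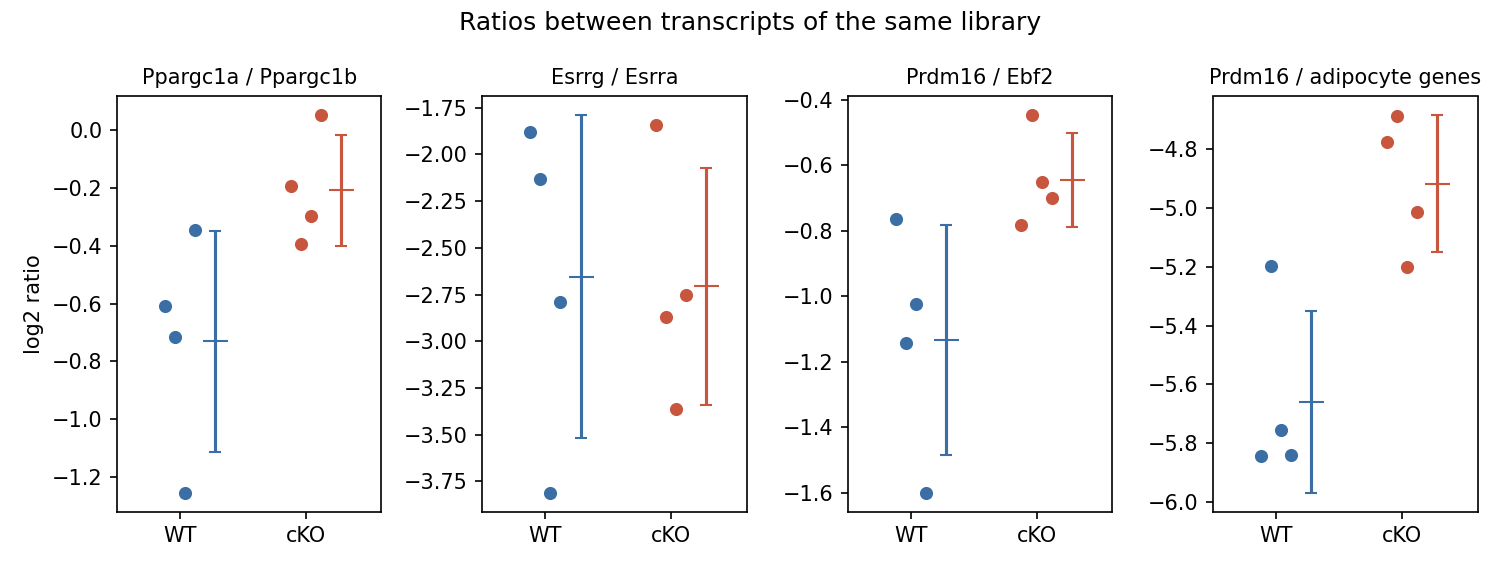
Log2 ratio of transcripts within each library, with points for single libraries (WT blue, cKO red) and crosses with bars for the group mean and SD (n = 4). The vertical axes differ between panels. The cKO mean is higher for Ppargc1a to Ppargc1b (by 0.52), Prdm16 to Ebf2 (by 0.49) and Prdm16 to the adipocyte genes (by 0.74), and none of these passed the test.

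Muscle lies beside this fat pad, and several of the regulators, among them Ppara, Ppargc1a and the estrogen-related receptors, are also expressed in muscle. The muscle score, the mean log2 CPM of 20 skeletal muscle markers such as Myh4, Acta1 and Ckm, was 1.32, 6.26, 4.09 and 8.48 in WT replicates 1 to 4 and 8.84, 7.02, 2.88 and 6.52 in cKO replicates 1 to 4. Each group held libraries with little and with much muscle RNA, and the highest scores were WT replicate 4 and cKO replicate 1. The 20 markers together were 0.0086% of counts in WT replicate 1 and 1.38% in cKO replicate 1, and their summed level ran from 86.7 to 10844 CPM over the WT libraries and from 228 to 14064 CPM over the cKO libraries. None of the 20 was at 0 in all libraries. The score was 5.04 ± 3.06 in WT and 6.32 ± 2.50 in cKO (SD, n = 4 each, exact permutation p = 0.543). All 20 markers had a log2 fold change above 0 (median 0.59), and edgeR called 0 of them, with 0 at an unadjusted p under 0.05. Myod1 and Myog, the defining regulators of muscle precursors, were under 2 CPM in every library, and Myod1 was at 0 in 5 of 8.

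Ppara followed the muscle score across libraries. Its log2 level correlated with the score at Pearson r = 0.92 over the 8 libraries (exact permutation p = 0.00285, adjusted over 10 regulators 0.0285) and at Spearman rho = 0.79 (exact permutation p = 0.0279, adjusted 0.279), and r was 0.85 without WT replicate 1 and cKO replicate 3, the libraries farthest from the median score. With group means removed r was 0.92. Ppara was 42.3 to 43.3 CPM in the 3 libraries with a score of at most 4.09 and 79.6 to 119 CPM in the other 5. Neither range holds 6 libraries, and no correlation is given inside a range. Ebf2 gave r = 0.73 (exact permutation p = 0.05002, adjusted 0.250) and rho = 0.62 (exact permutation p = 0.115, adjusted 0.492), and Ppargc1a r = 0.52 (exact permutation p = 0.185, adjusted 0.615) and rho = 0.57 (exact permutation p = 0.151, adjusted 0.492). Prdm16 gave r = 0.25 (exact permutation p = 0.543, adjusted 0.685) and rho = 0.14 (exact permutation p = 0.752, adjusted 0.940). For Zic1 r was -0.20 (exact permutation p = 0.617, adjusted 0.685) and rho -0.21 (exact permutation p = 0.619, adjusted 0.940), and for Esrrb r was 0.36 (exact permutation p = 0.374, adjusted 0.685) and rho 0.52 (exact permutation p = 0.197, adjusted 0.492). With group means removed r was 0.04 for Prdm16, -0.56 for Zic1 and 0.28 for Esrrb, values that were not tested. Pearson r was 0.31 for Ppargc1b, 0.10 for Esrra, 0.25 for Esrrg and 0.22 for Irf4 (exact permutation, adjusted p 0.685 to 0.797).

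**Figure D3:**
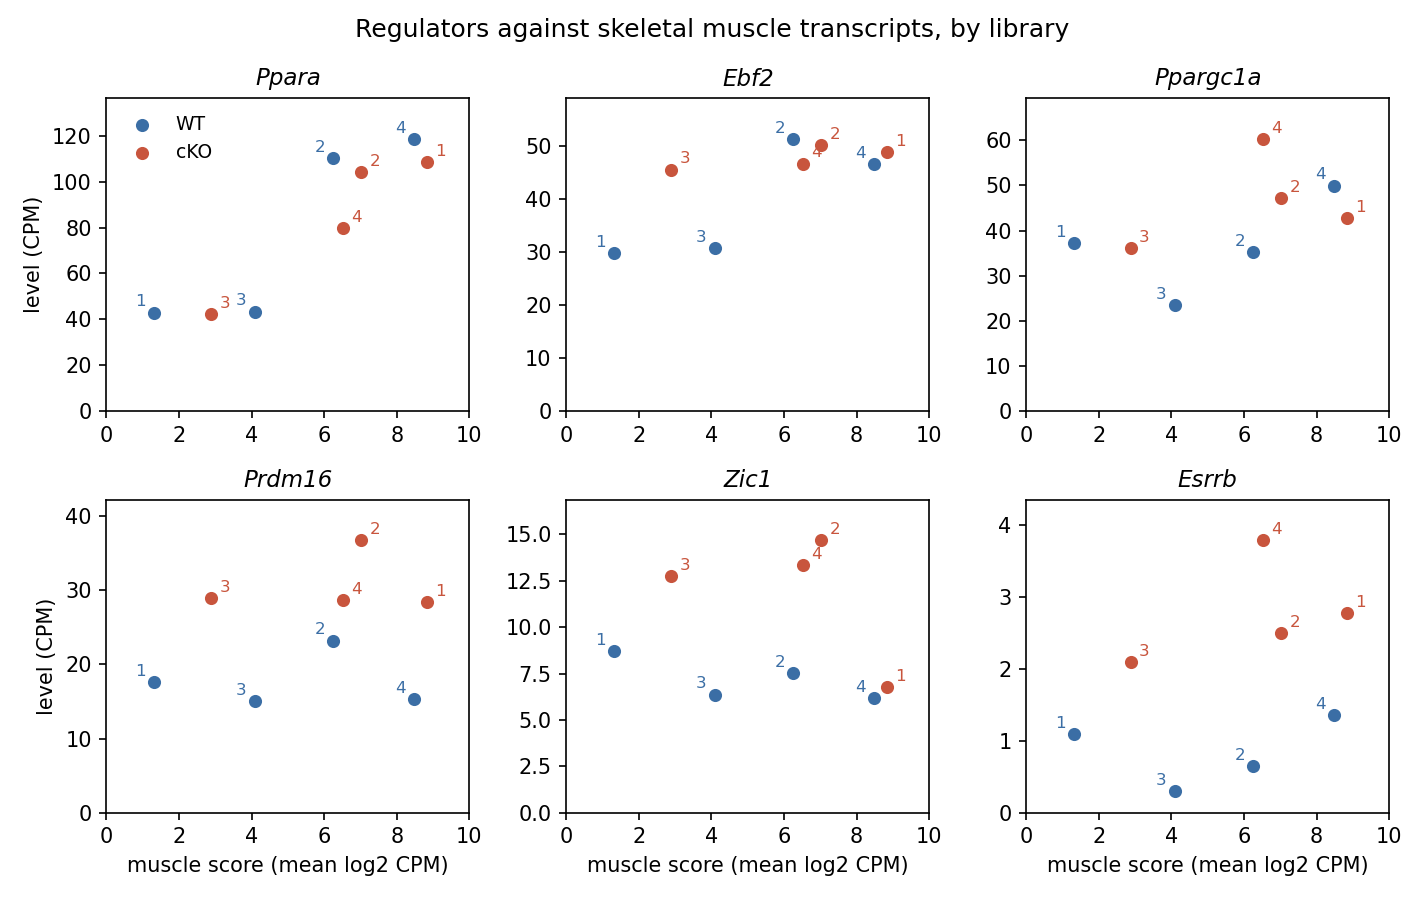
Level of 6 regulators in CPM (vertical axis) against the muscle score, the mean log2 CPM of 20 muscle markers (horizontal axis), with 1 point per library labelled by replicate (WT blue, cKO red). Ppara is at 42.3 to 43.3 CPM in the 3 libraries of lowest score and at 79.6 CPM or more in the others, whereas Prdm16 in cKO lies above WT at low and high scores.

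The differences in Prdm16, Zic1 and Esrrb were about as large with muscle taken into account. With the muscle score as a covariate in edgeR's fit, the log2 fold change of Prdm16 was 0.78 (95% interval 0.43 to 1.13, unadjusted p = 0.00035), that of Zic1 0.81 (0.35 to 1.27, unadjusted p = 0.00224) and that of Esrrb 1.63 (0.68 to 2.58, unadjusted p = 0.00261). The same 3 regulators were again the ones with an unadjusted p under 0.05, against 6.2% of all genes in that fit, and edgeR called 0 of the 10 (0.0618% of all genes called). Without WT replicate 4 and cKO replicate 1, the 2 libraries of highest score, the log2 fold changes were 0.76 for Prdm16, 0.85 for Zic1 and 1.99 for Esrrb, again with 0 of 10 called (0.095% of all genes). The replicate block also gave 0 of 10 (0.0481% of all genes). Ppargc1a was at 0.28 with the covariate (unadjusted p = 0.209) and at 0.58 without those 2 libraries (unadjusted p = 0.0273, adjusted p = 0.602). The interval of Ppara narrowed with the covariate from -1.05 to 1.22 to -0.55 to 0.21, and its log2 fold change went from 0.09 to -0.17 (edgeR unadjusted p = 0.344). The part of muscle RNA in the level of Ppara in each library was not tested further.

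**Figure D4:**
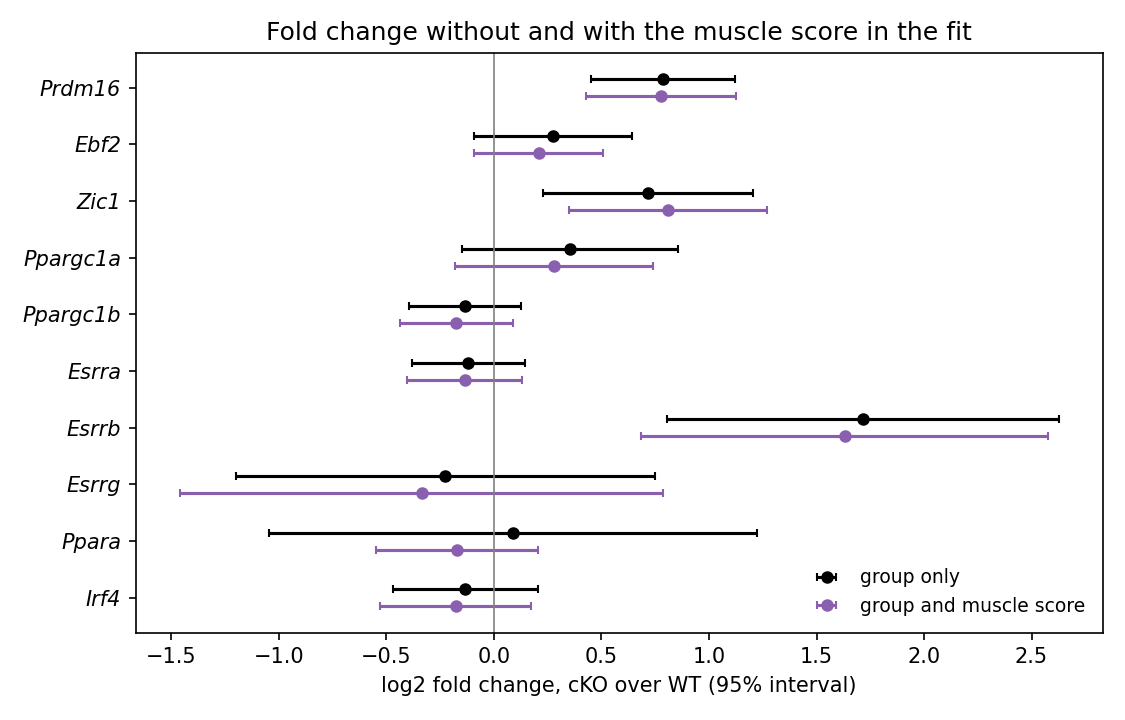
Log2 fold change of cKO over WT for each regulator with its 95% interval, from edgeR's fit with group alone (black) and with group and muscle score (purple). Prdm16, Zic1 and Esrrb keep intervals above 0 in both fits, and the interval of Ppara is the one that narrows most.

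None of the wider set of brown fat regulators was called. Of 37 tested partners and cofactors, 16 had a log2 fold change above 0 and 21 below (median -0.02), edgeR called 0, and 5 had an unadjusted p under 0.05, all lower in cKO, against 3.45% of all genes in that direction. These were Ehmt2, Rxrb, Cebpd, Cebpb and Cebpa. Ehmt2, a histone methyltransferase of the family that partners Prdm16, averaged 73.4 ± 8.42 CPM (WT) and 55.7 ± 5.98 CPM (cKO; SD, n = 4 each), and the groups were apart (log2 fold change -0.40, edgeR adjusted p = 0.784). Ehmt1, of the same family, hardly differed, at 32.5 ± 3.95 and 33.5 ± 2.15 CPM (SD, n = 4 each, log2 fold change 0.04, edgeR adjusted p = 0.977). Rxrb, a retinoid receptor that pairs with Ppara and Pparg, was at 59.1 ± 3.10 and 48.7 ± 0.588 CPM (SD, n = 4 each). Its groups, like those of Ehmt2, were apart (log2 fold change -0.28, edgeR adjusted p = 0.867). Groups failed to overlap with cKO lower for 2.27% of all genes. Cebpb, the partner of Prdm16 in the switch to the brown lineage, was at 156 ± 27.1 and 109 ± 30.2 CPM (SD, n = 4 each, log2 fold change -0.51, edgeR adjusted p = 0.882, and 0.0218 without the count filter). Pparg, the master regulator of fat cells, was at 167 ± 9.68 and 192 ± 15.6 CPM (SD, n = 4 each, log2 fold change 0.21, edgeR adjusted p = 0.886).

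No target gene of the regulators was called by edgeR. Shares below at an unadjusted p under 0.05 stand against 2.15% of all genes higher and 3.45% lower in cKO. Of 22 tested brown identity genes, 16 were above 0 and 6 below (median 0.13), edgeR called 0, and those with an unadjusted p under 0.05 were Cox7a1 and Cox8b, both respiratory chain subunits and both lower in cKO. Cox7a1 averaged 190 ± 10.7 CPM (WT) and 146 ± 21.5 CPM (cKO; SD, n = 4 each), with every cKO library below every WT library (log2 fold change -0.38, edgeR adjusted p = 0.844). Ucp1 was at 2571 ± 324 and 3167 ± 1025 CPM (SD, n = 4 each, log2 fold change 0.30 with a 95% interval from -0.14 to 0.74, edgeR adjusted p = 0.898). Of 24 targets of the estrogen-related receptors and their coactivators, 15 were above 0 and 9 below (median 0.01), edgeR called 0, and 1 had an unadjusted p under 0.05, the mitochondrial deacetylase Sirt3 (log2 fold change -0.23). Ckmt2 had the largest log2 fold change of this list (0.98). It was at 0.187, 11.2, 1.59 and 60.8 CPM in WT replicates 1 to 4 and at 104, 23.7, 1.59 and 13.4 CPM in cKO replicates 1 to 4. WT replicate 1 and cKO replicate 1 had the lowest and highest muscle scores. The part of muscle RNA in these target lists was not tested. Of 14 nuclear factors of mitochondrial biogenesis, 8 were above 0 and 6 below (median 0.02), with 0 called by edgeR and 0 at an unadjusted p under 0.05. This list is not one of targets alone, since it includes the regulators Ppargc1a, Ppargc1b and Esrra themselves. Of 22 targets of Ppara, 15 were above 0 and 7 below (median 0.05), and edgeR called 0. The acyl-CoA thioesterases Acot1 (log2 fold change 0.73, edgeR adjusted p = 0.882) and Acot4 (0.42, edgeR adjusted p = 0.882) had an unadjusted p under 0.05.

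Genes that cyclic AMP induces bear on the regulators because Ppargc1a and Irf4 are among them. Of 15 tested, 9 were above 0 and 6 below (median 0.19), and edgeR called 0. Nr4a2 and Fos were higher and Per1 lower at an unadjusted p under 0.05, against 2.15% of all genes higher and 3.45% lower. The orphan receptor Nr4a2 was at 10.1, 11.3, 7.60 and 12.5 CPM in WT replicates 1 to 4 and at 10.98, 21.97, 16.5 and 17.8 CPM in cKO replicates 1 to 4 (log2 fold change 0.70, edgeR adjusted p = 0.805, and 0.0282 without the count filter). As for Zic1, cKO replicate 1 was the cKO library inside the WT range. Dio2, the deiodinase that activates thyroid hormone in brown fat, was at 100.4 ± 34.1 and 162 ± 55.1 CPM (SD, n = 4 each, log2 fold change 0.69, edgeR adjusted p = 0.890). Per1, a clock gene, was at 102 ± 11.5 and 77.6 ± 13.7 CPM (SD, n = 4 each, log2 fold change -0.39, edgeR adjusted p = 0.882).

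Markers of other cells of the pad were set beside these results. The summed level of 8 endothelial markers was 519 to 830 CPM over the WT libraries and 510 to 614 CPM over the cKO libraries, and all 8 had a log2 fold change below 0 (median -0.17, 0 called by edgeR, 0 at an unadjusted p under 0.05). For 10 markers of preadipocytes and stroma the sums were 515 to 722 and 479 to 813 CPM (median log2 fold change 0.13), and of these Pi16 had an unadjusted p under 0.05 (log2 fold change 0.40, edgeR adjusted p = 0.882). They were 81.7 to 123 and 60.4 to 133 CPM for 12 macrophage and dendritic markers, and 7.78 to 14.2 and 7.69 to 10.3 CPM for 12 lymphocyte and plasma cell markers. For 8 markers of nerve and Schwann cells the sums were 96.7 to 173 and 117 to 150 CPM. No marker of these lists was at 0 in every library. Their part in the levels of the regulators was not tested.

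Among the 45 pairs of regulators, none had a correlation across libraries that passed adjustment. The closest were Ppargc1a with Esrrb, at r = 0.85 (exact permutation p = 0.00714, adjusted 0.227; rho = 0.79, exact permutation p = 0.0279, adjusted 0.628), which was 0.47 without the 2 libraries farthest from the median and 0.93 once group means were removed. Next were Ebf2 with Ppara, at r = 0.78 (exact permutation p = 0.0101, adjusted 0.227; rho = 0.67, exact permutation p = 0.0831, adjusted 0.850), 0.63 without the 2 farthest libraries and 0.85 once group means were removed. Prdm16 and Esrrb, the pair without overlap between groups, gave r = 0.74 over all libraries and -0.05 once group means were removed. For each regulator at 5 CPM or more, the genes most like it over the 8 libraries were drawn from 9567 protein-coding genes by Pearson r of log2 CPM, as a description. For Prdm16 these were Lias (0.95), Tmem241 (0.94) and Polr2m (0.94). For Zic1 they were D16Ertd472e (0.98), Gys2 (0.98) and Tmx2 (0.96), and for Ppargc1a they were Ncoa1 (0.998), Gpbp1 (0.98) and Elavl1 (0.98). Ebf2 was most like Tfrc, Tollip and Meis2 (0.93 to 0.94). Ppara was most like Xirp1 (0.97), a gene of striated muscle, Btc (0.97) and Rarb (0.96). Esrrg was most like Ago1 (0.98), Osbp (0.97) and Mfn2 (0.96).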

How the data were processed

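The authors deposited 1 table of estimated counts per gene for the 8 libraries. Per the submitters' processing notes, StringTie, Salmon and edgeR were used with the build GRCm38. The sources used here do not give versions, the annotation release, the strand setting or filters. Salmon-type estimates divide reads among the transcripts they fit, so counts of genes that share sequence depend on that division. The regulators shared at most 5.43% of their 31-base sequences with other genes (Python 3.11.15).

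GENCODE M21 named 54131 of the 54385 identifiers. Estimated counts were rounded, filtered with filterByExpr, scaled by TMM and tested with edgeR 4.0.16's robust quasi-likelihood test (R 4.3.3), group being the only term, with Benjamini-Hochberg adjustment over all 14553 genes tested. CPM are TMM-scaled, log2 CPM carry a prior count of 2, and ratios of 2 counts a pseudocount of 0.5. The ratio of Prdm16 to the adipocyte genes was taken from log2 CPM instead. Alternatives were DESeq2 1.42.0, limma-voom (limma 3.58.1), other scalings and filters, the replicate number as a block, fits without each library in turn, WT replicate 4 grouped with cKO, the muscle score as covariate, and muscle or mitochondrial genes removed. Leaving out the 2 libraries of highest muscle score, and the longest transcript as length, were chosen after seeing the data. The test was tried on simulated counts. At an adjusted p under 0.05 edgeR recovered 7.46% of 67 simulated 1.5-fold changes, 37.3% of 67 2-fold and 78.8% of 66 4-fold changes. It called 89 genes in the simulated counts against 10 in the data. The adjustment is stricter where fewer genes differ, so recovery in the data may be lower than these shares. A gene that was not called may therefore still differ. Groups followed the titles. No pair of libraries in a group agreed within sampling noise.

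The regulators and the other gene lists were chosen with earlier results of these data known. From each other list were named any called genes, otherwise up to 4 with an unadjusted p under 0.05, and up to 3 of the highest mean, the latter only where they bear on the regulators. Dio2, Pparg and Ucp1 were named by mean level, and 1 gene that this rule gives is not reported here. Lhx8, Epsti1, Agt, Hoxa9, Hoxc6, Hoxc8, Hoxc9, Hoxc10, Tcf21, Myod1, Myog, Ckm, Ehmt1 and Ckmt2 were named after their values were seen.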

Additional observations from a re-analysis of the deposited data

Results flagged for a closer look

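Prdm16 in cKO replicate 2 was at 36.7 CPM, apart from the other cKO libraries at 28.4 to 29.0 CPM. The log2 ratio of Prdm16 to the adipocyte genes in WT replicate 2 was -5.20, apart from the other WT libraries at -5.84 to -5.76, and this library alone reached the cKO range. Adcy3 in WT replicate 3 was at 61.7 CPM, apart from the other WT libraries at 112 to 118 CPM. Each was picked out because the gap to the nearest library took up more of the range of its group of 4 than Dixon's 95% limit allows (0.926, 0.867 and 0.892 of the range, in this order). Of 32 groups looked at, 3 were picked out, and chance alone does so in about 1 of 20.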

How the results depend on the processing

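Genes called numbered 10 with edgeR, 46 with DESeq2, 93 without the count filter and 1 with WT replicate 4 moved to cKO. With 1 library left out they numbered 8 to 14. Regulators called numbered 0 with edgeR, 2 with DESeq2 and 2 without the count filter, and 0 with any 1 library left out. The log2 fold change of Adcy3 was -1.26 (adjusted p = 0.747) with WT replicate 4 moved, and -2.44 to -2.18 with 1 library left out. Ppara turned to -0.17 with the muscle covariate and ran from -0.12 to 0.36 with 1 library left out, being below 0 without WT replicate 1 (-0.12), WT replicate 3 (-0.11), cKO replicate 1 (-0.06) or cKO replicate 2 (-0.03). Without WT replicate 3 Sdha was -0.069 and Pde4d -0.0109, without cKO replicate 2 Sdha was -0.02, and Pde4d was -0.0101 with the covariate. With 1 library left out Sdha ranged up to 0.0781 and Pde4d up to 0.46. The Esrrg to Esrra difference ran from -0.44 to 0.20. It was above 0 without WT replicate 1 (0.20), WT replicate 2 (0.12), cKO replicate 2 (0.0005) or cKO replicate 3 (0.17). The causes were not tested. Over 38 named genes, 743 of 758 refitted values kept direction and side of the threshold, 6 newly passed and 9 changed sign. Esrrb rests on 218 counts over 8 libraries.

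Same-numbered libraries did not deviate together (correlations -0.464, 0.035, 0.409 and 0.0016), so numbers were not taken as pairs. With the replicate block edgeR called 7 genes and 0 regulators, Adcy3 was -2.23 (adjusted p = 0.225) and Prdm16 0.80 (adjusted p = 0.0756).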
